A study of Mus musculus with 6 samples.

Results

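The genes described here are 8 receptors for steroid hormones in the uterus of weanling mice: Pgr, Pgrmc1, Pgrmc2, Esr1, Esr2, Gper1, Nr3c1 and Nr3c2. They were chosen by symbol, with the low Pgr level of Nat10-deleted uteri already known, from 20637 genes listed in each library. All 8 were listed, and 7 reached the level needed for testing (an FPKM of at least 1 in at least 3 libraries, which 12640 genes reached). FPKM is fragment abundance divided by transcript length and by library depth, so levels can be compared between genes. Poly(A) RNA from the whole uterus of female mice on postnatal day 21 was sequenced in 3 libraries from floxed controls (Nat10 f/f) and 3 from Nat10-deleted mice (Nat10 d/d). Both groups carry the floxed Nat10 gene, and the deleted group has in addition lost it in those cells where recombination took place. Nat10 encodes an RNA cytidine acetyltransferase.

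The Cre driver, the strain and the deleted exons are not given in the sources used here. As background, a Cre inserted into the Pgr gene itself is widely used for deletion in the uterus, and that insertion disables the Pgr copy that carries it. Whether the deleted mice carry this allele is not given in the sources used here and was not tested. If they do, its effect on Pgr and that of Nat10 loss cannot be told apart. The labels do not say whether a library is 1 animal or a pool. Nothing in them says that replicates are separate animals, so p-values measure the spread between these libraries only.

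Steroid receptors of the nuclear class are transcription factors that bind their hormone inside the cell and then bind DNA. In the uterus, oestrogen acting through Esr1 drives growth of the epithelium and raises Pgr, and progesterone acting through Pgr restrains that growth and prepares the stroma for implantation. Pgrmc1 and Pgrmc2 are haem-binding membrane proteins linked to rapid progesterone effects and steroid metabolism, and Gper1 is a membrane G protein-coupled receptor linked to oestrogen. Nr3c1 and Nr3c2 are the glucocorticoid and mineralocorticoid receptors. On postnatal day 21 the ovary has not begun to cycle.

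The stretches upstream of the 3 genes for progesterone-binding proteins are shown because the Pgr values of the groups did not overlap while those of Pgrmc1 and Pgrmc2 did. Each runs 5′ to 3′ over the 250 bases before the RefSeq start site, with capitals marking the GC box GGGCGG on either strand (CCGCCC in the printed strand where it lies on the other). Sequences are from RefSeq on GRCm38.p6, the same assembly as mm10. The windows are chr9:8899583-8899832 on the plus strand for Pgr, chrX:36597943-36598192 on the plus strand for Pgrmc1 and chr3:41083047-41083296 on the minus strand for Pgrmc2.
Pgr: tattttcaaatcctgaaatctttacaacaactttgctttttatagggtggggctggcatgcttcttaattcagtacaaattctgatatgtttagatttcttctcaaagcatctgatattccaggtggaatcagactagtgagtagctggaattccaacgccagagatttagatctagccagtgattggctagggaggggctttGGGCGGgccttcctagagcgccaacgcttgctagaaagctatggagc
Pgrmc1: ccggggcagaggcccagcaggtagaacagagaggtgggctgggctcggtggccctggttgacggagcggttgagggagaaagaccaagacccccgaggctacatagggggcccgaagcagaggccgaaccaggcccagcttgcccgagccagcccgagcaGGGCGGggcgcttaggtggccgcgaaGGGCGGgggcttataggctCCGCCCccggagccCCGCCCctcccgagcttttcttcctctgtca
Pgrmc2: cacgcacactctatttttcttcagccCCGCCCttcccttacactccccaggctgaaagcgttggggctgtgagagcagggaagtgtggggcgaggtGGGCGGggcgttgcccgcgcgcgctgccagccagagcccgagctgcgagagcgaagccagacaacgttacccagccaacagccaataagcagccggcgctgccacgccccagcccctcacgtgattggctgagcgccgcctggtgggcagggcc

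The Pgr stretch holds 1 GC box, that of Pgrmc1 holds 4 and that of Pgrmc2 holds 2. With the 50 bases after the start included, 43.7% of the Pgr window is G or C, against 69% for Pgrmc1 and 69.3% for Pgrmc2, and the median of 32851 RefSeq promoter windows of this length was 52.7%. The Pgr window holds 6 CpG pairs, that of Pgrmc1 24 and that of Pgrmc2 25. Low values are not particular to Pgr. Among other receptor genes, whose groups overlapped, G or C made up 46.3% and 59.3% of the Esr1 windows and 48.3% of the Gper1 window. It made up 56% of the Esr2 window and 65.7% of the Nr3c2 window. These hold 6 and 12 CpG pairs for Esr1, 6 for Gper1, 14 for Esr2 and 17 for Nr3c2. A link between base content and the Pgr difference was not tested. The oestrogen response element, GGTCA and TGACC with any 3 bases between them, searched on both strands, was in none of the 8 windows of the 7 receptor genes with an entry, and 0.07% of all windows hold it. Its half-site GGTCA, contained in the element and found in 40.5% of all windows, occurred in 1 of the Esr1 windows, 2 times in the Esr2 window and 2 times in that of Nr3c2. The element bound by the progesterone and corticosteroid receptors, GNACA and TGTNC with any 3 bases between them (N is any base), was in none of the 8 windows and in 0.475% of all windows. The GC box was in 35.7% of all windows.

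Across the 6 libraries, between 15431 and 15680 genes had a value above 0. Total read counts are unknown, and depth relative to floxed control replicate 1, estimated from the lowest values, ranged from 0.805 to 1.016. Nat10, the targeted gene, was at 13.2, 16.4 and 9.95 FPKM in control replicates 1, 2 and 3 and at 5.57, 5.23 and 5.53 in deleted replicates 1, 2 and 3. The groups did not overlap, and the deleted mean was 41.4% of the control mean. In limma, 0 of 12640 genes (0%) passed an adjusted p of 0.05, the smallest adjusted p being 0.669, while 630 genes had an unadjusted p under 0.05. Leaving out Nat10-deleted replicate 2 gave 12 passing genes and 1726 at an unadjusted p under 0.05, and leaving out replicate 3 gave 0 and 1403. With array quality weights 316 genes passed.

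In control uteri the receptor genes spanned a wide range of levels. Pgrmc1 was the most abundant at 183 ± 7.33 FPKM (SD, n = 3), followed by Esr1 at 116 ± 27.6, Pgr at 65.5 ± 7.31, Nr3c1 at 40.5 ± 5.58, Pgrmc2 at 37.8 ± 1.16, Gper1 at 5.91 ± 0.0862, Nr3c2 at 3.6 ± 0.516 and Esr2 at 0.0754 ± 0.0294 (SD, n = 3 each). The ranges of neighbours in this order did not overlap, except those of Nr3c1 and Pgrmc2. Of the tested genes, 97.5% had a lower control mean than Pgrmc1, 95.8% than Esr1, 91.4% than Pgr, 25% than Gper1 and 15.4% than Nr3c2. In deleted uteri the order was Pgrmc1, Esr1, Pgrmc2, Nr3c1, Pgr, Gper1, Nr3c2 and Esr2, and only Nr3c1 and Pgr had overlapping ranges. Pgr thus stood at rank 3 of 8 in controls and at rank 5 in deleted uteri, where 77.4% of tested genes had a lower mean.

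**Figure D1:**
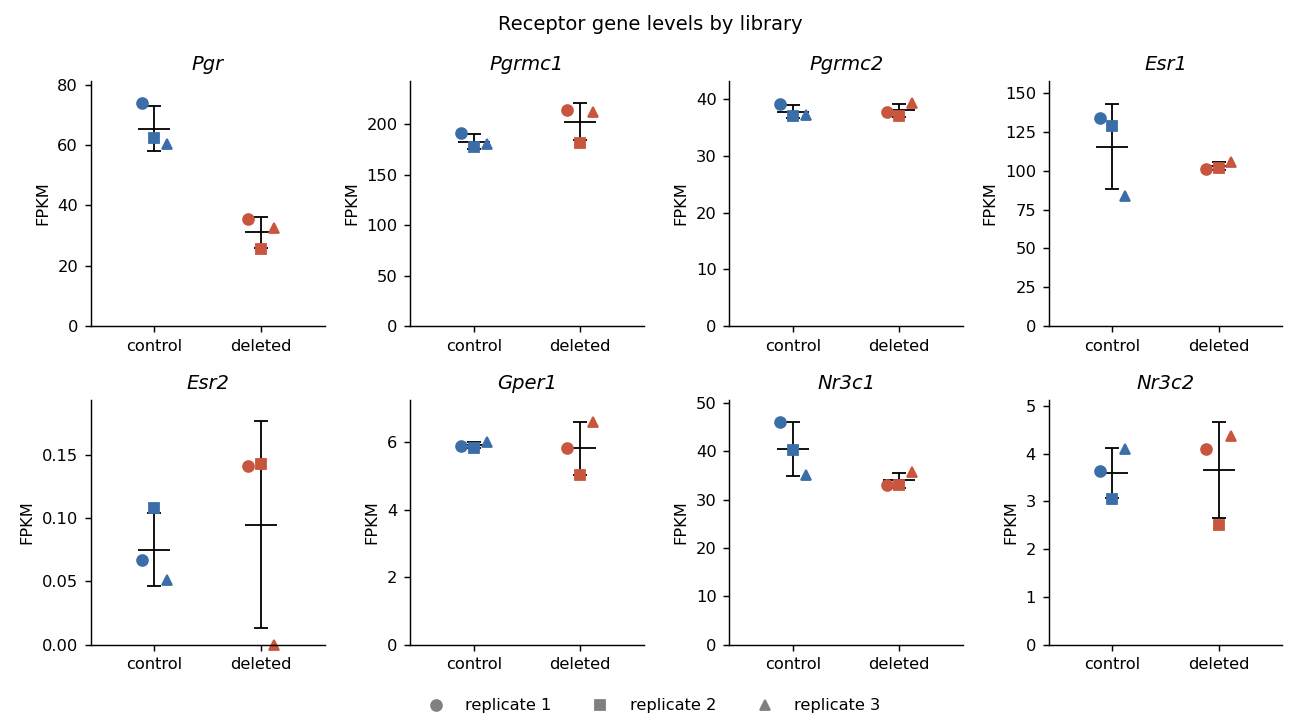
FPKM of each receptor gene (y axis, its own scale from 0 in each panel) in floxed control (blue) and Nat10-deleted (red) libraries; points are libraries, with the replicate number by shape, and bars are the mean and SD. Pgr is the panel in which the groups do not overlap, with controls from 60.3 to 73.8 and deleted libraries from 25.4 to 35.3.

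Pgr (ENSMUSG00000031870, chr9:8899833-8968611, plus strand, mm10), the nuclear progesterone receptor, was at 73.8, 62.2 and 60.3 FPKM in control replicates 1, 2 and 3. In deleted replicates 1, 2 and 3 it was at 35.3, 25.4 and 32.6. Every deleted library lay below every control, with a gap of 25 FPKM between the lowest control and the highest deleted library. The deleted mean, 31.1 ± 5.14 (SD, n = 3), was 47.5% of the control mean. On the log2(FPKM + 1) scale the difference was -1.06 with a standard error of 0.15, and no test is given because Pgr was chosen on this contrast. Of the 12640 tested genes, 10 had a more negative change and 36 a larger change in either direction.

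Within each library Pgr was also low relative to the other receptors. The Pgr to Esr1 ratio was 0.552, 0.481 and 0.719 in control replicates 1, 2 and 3 and 0.35, 0.25 and 0.309 in deleted replicates 1, 2 and 3. The deleted mean ratio was 51.8% of the control mean ratio, and the groups did not overlap. Against Nr3c1 the ratio was 1.6, 1.55 and 1.72 in controls, and it was 1.07, 0.767 and 0.915 in deleted ones, again without overlap. Relative to Pgrmc1, Pgrmc2 and Gper1, the deleted mean ratios were 42.8%, 47.3% and 48.3% of the control ones. The difference in Pgr was therefore not shared by Esr1, Nr3c1, Pgrmc1, Pgrmc2 or Gper1 in the same libraries. These ratios contain the Pgr values that chose the gene, so they describe and do not test.

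**Figure D2:**
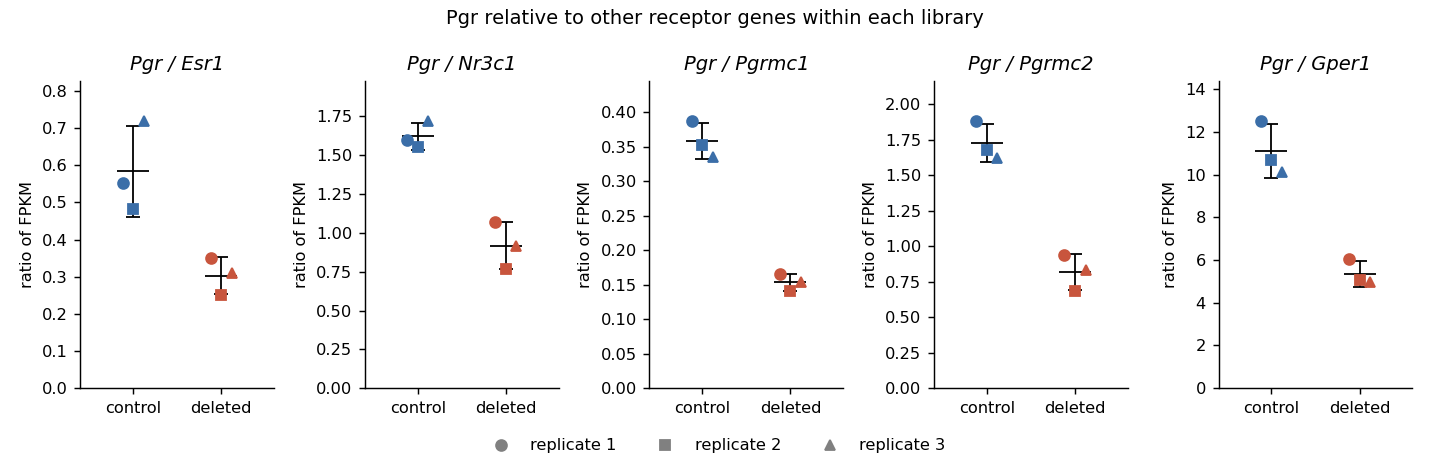
Pgr divided by the FPKM of another receptor gene in the same library (y axis, ratio from 0), for controls (blue) and deleted libraries (red); points are libraries and bars the mean and SD. In each of the 5 panels the 3 deleted libraries lie below the 3 controls.

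The other progesterone-linked genes did not share the low level of Pgr. Pgrmc1 (ENSMUSG00000006373, chrX:36598206-36606079, plus strand) was at 191, 177 and 180 FPKM in controls and at 214, 181 and 212 in deleted replicates 1, 2 and 3. Deleted replicates 1 and 3 lay above every control and replicate 2 within the control range, giving a log2 change of 0.14 (SE 0.11). Pgrmc2 (ENSMUSG00000049940, chr3:41066326-41083046, minus strand) was at 39.2, 37.1 and 37.2 in controls and at 37.8, 37.1 and 39.3 in deleted replicates. Both groups of Pgrmc2 covered nearly the same range, with coefficients of variation of 3.06% in controls and 3.01% in deleted uteri and a log2 change of 0.01 (SE 0.1). The Pgrmc1 to Pgrmc2 ratio ranged from 4.76 to 5.66 over the 6 libraries.

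Esr1 (ENSMUSG00000019768, chr10:4611593-5005614, plus strand), the main uterine oestrogen receptor and a known activator of Pgr, was at 134, 129 and 83.9 FPKM in control replicates 1, 2 and 3. In deleted replicates 1, 2 and 3 it was at 101, 102 and 106. The deleted values were close together (coefficient of variation 2.53%) and lay inside the wider control range (23.8%), where replicate 3 was the lowest of all 6 libraries. The log2 change was -0.14 (SE 0.18), smaller than the spread among controls, and without control replicate 3 it was -0.35.

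Esr2 (ENSMUSG00000021055, chr12:76120419-76177259, minus strand), the other nuclear oestrogen receptor, was barely present. It was at 0.0669, 0.108 and 0.0512 FPKM in controls, at 0.142 and 0.143 in deleted replicates 1 and 2, and listed at 0 in deleted replicate 3. It did not reach the level for testing, and no fold is given. In the 5 libraries where Esr2 was above 0, Esr1 was between 712 and 2000 times as high per length. Gper1 (ENSMUSG00000053647, chr5:139423151-139427800, plus strand), the membrane oestrogen receptor, was at 5.9, 5.83 and 6 FPKM in controls and at 5.83, 5.03 and 6.6 in deleted replicates. The controls were nearly alike (coefficient of variation 1.46%) and lay inside the deleted range, and the log2 change was -0.02 (SE 0.13). Gper1 overlaps the protein-coding gene 3110082I17Rik on the opposite strand, and without strand information their reads cannot be told apart.

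Nr3c1 (ENSMUSG00000024431), the glucocorticoid receptor, was at 46.1, 40.3 and 35 FPKM in control replicates 1, 2 and 3. In deleted replicates 1, 2 and 3 it was at 33.1, 33.1 and 35.7. Deleted replicates 1 and 2 lay below every control and replicate 3 just above the lowest control, so the groups overlapped. The deleted mean was 83.9% of the control mean, with a log2 change of -0.24 (SE 0.13). With all libraries this was the next largest difference after Pgr among the tested receptor genes. The place depended on single libraries. Without control replicate 1 the Nr3c1 change was -0.14, against 0.17 for Pgrmc1. Without control replicate 3 it was -0.34, against -0.35 for Esr1. Nr3c2 (ENSMUSG00000031618, chr8:76899442-77245012, plus strand), the mineralocorticoid receptor, was at 3.64, 3.06 and 4.09 in controls and at 4.1, 2.51 and 4.38 in deleted replicates. Deleted replicate 2 was the lowest library and replicates 1 and 3 the highest, and the log2 change was 0 (SE 0.2). Nr3c1 was between 8.07 and 13.2 times as high per length as Nr3c2 in every library.

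**Figure D3:**
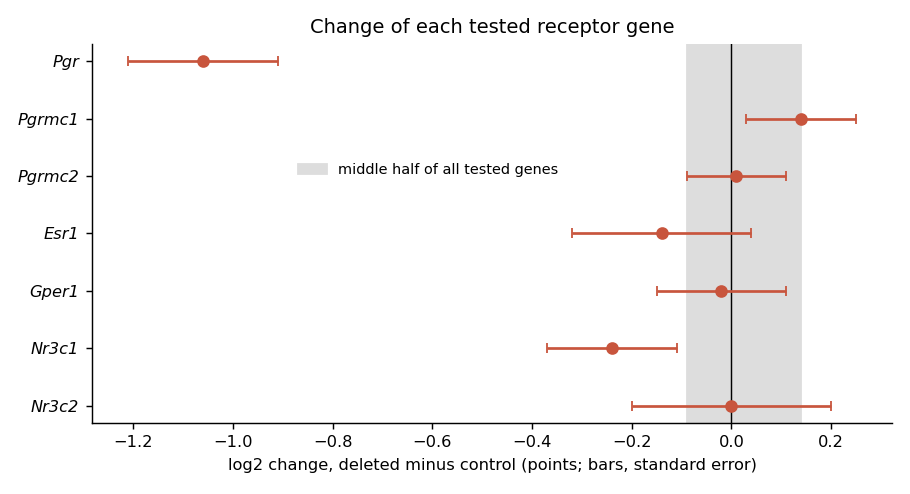
Log2 change on the log2(FPKM + 1) scale, Nat10-deleted minus control (x axis), for the 7 tested receptor genes; points are the change, bars its standard error, and the grey band runs from the lower to the upper quartile of the changes of all 12640 tested genes (-0.09 to 0.14). Pgr lies at -1.06 and the other 6 between -0.24 and 0.14.

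Of the 7 tested receptors, Pgr was the only one whose groups did not overlap, and over all tested genes 4.6% had every deleted library below every control (10.7% in either direction). Nothing is read from this count, since the contrast was used to choose the genes.

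Genes whose profile over the 6 libraries was closest to that of Pgr were found by the root-mean-square difference in log2(FPKM + 1), each gene taken relative to its own control mean. Nat10 itself was the closest of all tested genes, with a difference of 0.23, and its log2 change of -1.11 (SE 0.17) was near that of Pgr. Next came Nptx1 (0.24), a neuronal pentraxin, Ramp3 (0.27), a co-receptor for adrenomedullin, and Slc2a3 (0.29), a glucose transporter. Plac9b (0.3), Krt83 (0.3), a keratin, and Cldn23 (0.32), a claudin, were also among the 8 closest. Ramp3 was at 24.3, 17 and 20.4 FPKM in controls and at 11.4, 11.9 and 9.07 in deleted replicates 1, 2 and 3. Like Pgr, it was lower in every deleted library than in every control, but its lowest library was deleted replicate 3, whereas that of Pgr was replicate 2. The groups did not overlap for any of these 7 genes, against 10.7% of all tested genes without overlap. They did overlap for the remaining gene of the 8 closest, which is not reported here. Because likeness to Pgr selected the 8 genes, their changes and lack of overlap are a description. Plac9b has a near-identical copy, so its value is uncertain.

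The 4 genes closest to Esr1 were Kcng1 (0.07), a potassium channel subunit, Zfp619 (0.08), Gnb1l (0.09) and Pde4c (0.1), a phosphodiesterase. Kcng1 was at 8.63, 9.14 and 5.23 FPKM in controls and at 6.71, 6.75 and 6.24 in deleted replicates, with the low control replicate 3 that also marks Esr1. None of the 4 was among the 8 genes closest to Pgr.

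**Figure D4:**
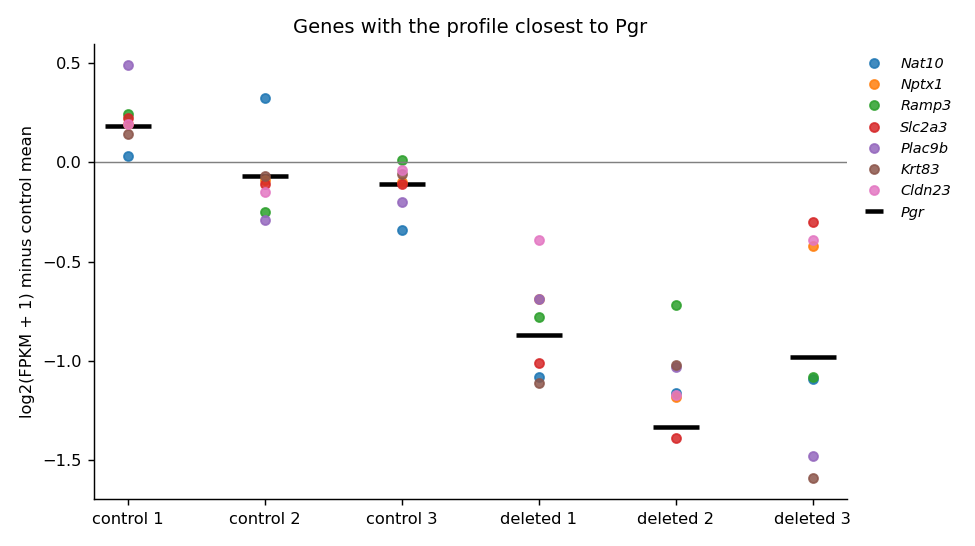
Log2(FPKM + 1) minus the gene's control mean (y axis) in each library (x axis) for Pgr (black bars) and the 7 genes named in the text among those with the closest profile (coloured points). Pgr lies between -0.11 and 0.18 in the controls and between -1.33 and -0.87 in the deleted libraries.

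The wider receptor pathway was described from 7 lists holding 136 distinct listed genes, of which 119 were tested. Sprr2f, an oestrogen-responsive gene of a family of near-identical copies, passed the level only through the deleted libraries, where it is high, so the counts are given for the other 118. None passed an adjusted p of 0.05 in limma, where the background was 0%. An unadjusted p under 0.05 was found for 6 higher and 6 lower genes, or 10.2% of them, against 4.98% of all tested genes (2.68% higher and 2.3% lower). This even split became 5 higher and 10 lower after median centring, 5 and 9 after quantile normalization and 5 and 10 with upper-quartile scaling. There was no overlap between groups for 3 higher and 9 lower genes, also 10.2%, against 10.7% of all tested genes (6.12% higher and 4.6% lower). The split over all tested genes depended on scaling: 774 higher and 582 lower became 555 and 813 after median centring, 539 and 828 after quantile normalization and 523 and 837 after upper-quartile scaling. The 118 genes gave 3 higher and 11 to 13 lower under these scalings. Their median log2 change was -0.03, against 0.03 over all tested genes, of which 56.6% were higher. The lists were drawn up with earlier results of these data known, so these shares are a description.

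Among 8 tested relatives of the receptors, 4 were higher and 4 lower, with a median log2 change of 0.01. Paqr7, a membrane progestin receptor, was at 4.54, 4.51 and 4.4 FPKM in controls and at 2.84, 3.31 and 3.86 in deleted replicates, a log2 change of -0.35 (SE 0.14; limma adjusted p 0.922) without overlap. Paqr5, another membrane progestin receptor, was at 1.65 ± 0.387 in controls and 2.19 ± 0.486 in the deleted group (SD, n = 3), with overlap. Esrrb, Esrrg and Paqr9 did not reach the level for testing.

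All 20 chaperone genes that fold steroid receptors were tested, 10 higher and 10 lower, with a median log2 change of -0.02. Fkbp5, a co-chaperone that dampens glucocorticoid and progesterone receptor activity and is itself induced by them, was at 4.4, 2.25 and 1.58 FPKM in controls and at 3.32, 6.12 and 9.88 in deleted replicates. This is a log2 change of 0.96 (SE 0.38; limma adjusted p 0.922), and the groups overlapped because control replicate 1 exceeded deleted replicate 1. Bag1 was at 94.6 ± 5.47 in controls and 107 ± 13.2 in the deleted group (SD, n = 3), with overlap. Sgta was at 50.4 ± 1.95 in controls and 45.8 ± 4.24 in the deleted group (SD, n = 3). It was the 1 of 20 chaperone genes (5%) without overlap, against 10.7% of all tested genes, and its lowest control (49) and highest deleted value (48.9) nearly met. Fkbp4, the co-chaperone on which uterine Pgr activity depends, was at 168, 187 and 144 in controls and at 113, 206 and 138 in deleted replicates, and Fkbp4 was named here after its values were seen.

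Of 22 coregulator genes, all tested, 4 were higher and 18 lower, with a median log2 change of -0.08. Over all tested genes 56.6% were higher. The split became 2 and 20 after median centring, where 50% of all tested genes were higher. It was 1 and 21 after quantile normalization (49.1%) and 2 and 20 with upper-quartile scaling (47.9%). Without scaling, none of the 22 had an unadjusted p under 0.05 in limma, against 4.98% of all tested genes. The corepressor Ncor1 was at 37.3 ± 1.18 in controls and 33.1 ± 2.52 in the deleted group (SD, n = 3) without overlap, and the coactivator Ncoa1 at 14.3 ± 1.34 and 12.3 ± 2.08 with overlap. Taken against the control mean, the list's median was -0.17, -0.25 and 0.08 in deleted replicates 1, 2 and 3, so that replicate 3 went the other way.

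Genes known to be raised by progesterone through Pgr lay on both sides of 0 in these uteri with low Pgr. Of 26, 24 were tested, with 10 higher and 14 lower and a median log2 change of -0.06. At an unadjusted p under 0.05, 3 were higher and 1 lower, or 16.7%, against 4.98% of all tested genes (2.68% higher and 2.3% lower). Without overlap there were 1 higher and 1 lower, or 8.33%, against 10.7% of all tested genes. These shares only describe the list, which was drawn up with earlier results of these data known. Acod1, an immune-metabolic enzyme known as a progesterone target, was at 1.44, 2.38 and 1.26 FPKM in controls and at 4.47, 4.05 and 8.15 in deleted replicates. Every deleted library was above every control, a log2 change of 1.25 (SE 0.26; limma adjusted p 0.806), opposite in sign to Pgr. Fst, the activin-binding follistatin, was at 6.1, 2.15 and 2.73 in controls and at 1.02, 1.16 and 1.64 in deleted replicates, a log2 change of -0.95 (SE 0.3; limma adjusted p 0.922) without overlap. Il13ra2, a decoy receptor for interleukin 13, was at 1.39 ± 0.743 in controls and 3.13 ± 1.37 in the deleted group (SD, n = 3), with overlap. Areg and Calca, induced by progesterone in the adult uterus, were too low to be tested. The list's median was -0.03, -0.4 and 0.37 in deleted replicates 1, 2 and 3, so deleted libraries lay on both sides of the controls (-0.04 to 0.03).

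Of 24 genes known to be raised by oestrogen through Esr1, 22 were tested. Leaving out Sprr2f, 12 were higher and 9 lower, with a median log2 change of 0.04. At an unadjusted p under 0.05, 2 of these were higher and 3 lower, and the same numbers were without overlap. Each is 23.8% of the 21 genes, against 4.98% and 10.7% of all tested genes. The list was drawn up with earlier results of these data known, so nothing is read from this excess. Padi1, a peptidylarginine deiminase, was at 8.26, 8.36 and 9.01 FPKM in controls and at 3.41, 5.5 and 3.47 in deleted replicates, a log2 change of -0.92 (SE 0.17; limma adjusted p 0.778). Ramp3, whose values are given above, had a log2 change of -0.86 (SE 0.16; limma adjusted p 0.778). Fos, an immediate early transcription factor, was at 1.8, 3.43 and 3.5 in controls and at 5.62, 6.01 and 5.86 in deleted replicates, a log2 change of 0.84 (SE 0.2; limma adjusted p 0.922). Thus known oestrogen targets lay on both sides while Esr1 overlapped between the groups.

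All 16 genes known to respond to corticosteroids were tested, with 11 higher and 5 lower and a median log2 change of 0.18. The list's median was 0.18, -0.49 and 0.6 in deleted replicates 1, 2 and 3, against -0.11 to 0.06 in controls, so the deleted libraries lay on both sides of the controls. Without deleted replicate 3 the median change was -0.11. Lcn2, lipocalin 2, which is also on the oestrogen list, was at 2.46, 4.51 and 4.78 FPKM in controls and at 17.3, 19.8 and 6.37 in deleted replicates, a log2 change of 1.55 (SE 0.4; limma adjusted p 0.922) without overlap. Sgk1, a kinase induced by both corticosteroid receptors, was at 19.2, 22.7 and 23 in controls and at 12.8, 13.7 and 19.1 in deleted replicates, a log2 change of -0.5 (SE 0.16; limma adjusted p 0.922) without overlap. Fkbp5 was the other named member.

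Of 23 listed enzymes of steroid synthesis and inactivation, 13 were tested, with 7 higher and 6 lower and a median log2 change of 0.01. Aromatase (Cyp19a1), Cyp17a1, Hsd3b6 and Akr1c18 were listed at 0 in all 6 libraries. The 2 enzymes that interconvert active and inactive glucocorticoid were the named members with the smallest p. Hsd11b1, which reactivates glucocorticoid, was at 3.5, 3.39 and 3.6 FPKM in controls and at 8.45, 3.36 and 9.77 in deleted replicates. Deleted replicates 1 and 3 were far above the controls and replicate 2 just below them, giving a log2 change of 0.76 (SE 0.32; limma adjusted p 0.922). Hsd11b2, which inactivates it and so guards Nr3c2, was at 16.1, 17.2 and 14.2 in controls and at 11.7, 12.4 and 14.6 in deleted replicates, a log2 change of -0.28 (SE 0.13; limma adjusted p 0.922) with overlap. Cyp1b1, an oestrogen hydroxylase, was at 3.41 ± 0.448 in controls and 6.17 ± 3.96 in the deleted group (SD, n = 3), with deleted replicate 2 below every control.

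**Figure D5:**
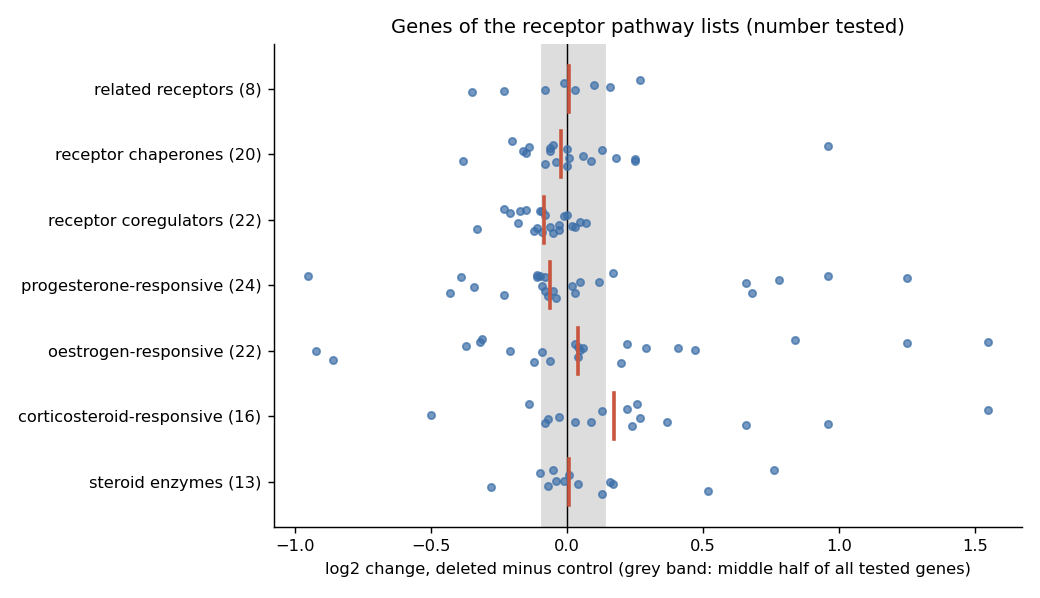
Log2 change on the log2(FPKM + 1) scale, Nat10-deleted minus control (x axis), of each tested gene in the 7 receptor pathway lists (points, spread vertically for legibility; red lines, list medians); the grey band runs from the lower to the upper quartile of all tested genes. List medians lie between -0.08 and 0.18.

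Cell-type markers were summed per library to show what else moved with Pgr. In whole-tissue RNA, fewer cells of a type and less RNA per cell cannot be told apart. The 6 stromal markers (all lower on average, all with overlap) summed to 2340 to 2650 FPKM in controls and 2080 to 2480 in deleted uteri, which is 87.7% of the control level. The 6 epithelial markers summed to 584 to 680 in controls and 651 to 751 in deleted uteri (111%), with 5 higher and 1 lower on average, and Epcam and Cldn7 (log2 changes 0.26 and 0.49) were higher without overlap. The 6 smooth muscle markers summed to 3960 to 4560 and 3690 to 4740 (101%). The 5 endothelial markers were all lower, with sums of 195 to 224 in controls and 162 to 194 in deleted uteri (84.4%), without overlap of the sums, and Kdr and Tek (log2 changes -0.47 and -0.2) were themselves without overlap. The 3 mesothelial markers were all lower, with sums of 22.1 to 32.5 and 18.4 to 22.6 (72.8% of control). These sums overlapped, while Msln and Lrrn4 (log2 changes -0.51 and -0.7) were without overlap. The 4 leukocyte markers summed to 22.3 to 38.8 in controls and 23.2 to 33.3 in deleted uteri. Over all tested genes, 6.12% were higher and 4.6% lower without overlap. The part of the marker shifts in the Pgr difference was not tested.

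Carried-over tissue was also measured. The 4 globin genes summed to 5570, 2620 and 849 FPKM in control replicates 1, 2 and 3. In deleted replicates 1, 2 and 3 they summed to 708, 1720 and 1110 (39.1% of the control mean). The 3 fat markers summed to 31.2, 1.27 and 3.73 in controls and to 8.59, 2.68 and 0.146 in deleted replicates (31.6%). Both percentages lean on control replicate 1, the highest library in each. For fat, control replicates 2 and 3 lay within the deleted range. The 2 oviduct and ciliated-cell markers summed to 2.07 to 6.67 and 1.16 to 4.16 (52.3%). The groups overlapped in each of these sums, whose part in the Pgr difference was not tested. Of the 4 ovarian markers, which summed to 5.08 to 7.73 and 5.17 to 9.52, Fshr and Zp3 were listed at 0 in all 6 libraries. Smooth muscle, stromal and epithelial markers were at high levels, among them Acta2 at 1610 to 1940 FPKM in controls. They are not particular to the uterus, so they do not test the labelled tissue.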

How the data were processed

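Libraries were made from TRIzol-extracted RNA with the TruSeq RNA kit, per the labels' protocols. The authors deposited 1 table per library with an Ensembl identifier, a symbol and an FPKM value per gene. HISAT2 2.2.1, Cufflinks 2.2.1 and mm10 are named in the submitters' processing notes, and the FPKM unit was inferred from these and the deposited values. Annotation, gene filter and strandedness are not given in the sources used here. Of 20637 identifiers, 20558 matched GENCODE M21, which gave positions.

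Values were analysed as log2(FPKM + 1), which understates changes of low genes. Groups were read from sample titles. Genes reaching an FPKM of 1 in 3 or more libraries entered limma 3.58.1 in R 4.3.3 (eBayes with trend, group as the only term, two-sided, Benjamini-Hochberg over all tested genes, threshold 0.05), after checks on simulated data. Relative depth was the most frequent ratio of low values to those of control replicate 1. Depth in reads is unknown, so no counting intervals are given.

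The receptor genes and lists were chosen with earlier results of these data known. Named genes were Nat10, the 8 receptors, the 3 tested genes of each list with the smallest p, and the genes closest to Pgr (8) and Esr1 (4). A few of these are not reported here. Alternatives were 3 scalings, a pseudocount of 0.1, 2 other filters, no trend, array quality weights, a block for the replicate number, and omission of each library in turn. Python 3.11.15, pandas 2.3.3, numpy 2.4.6 and matplotlib 3.10.9 were used.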

Additional observations from a re-analysis of the deposited data

How the results depend on the processing

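Pgr was lower in deleted uteri under every setting run, with log2 changes of -1.1 to -0.93 under other scalings, filters, weights and pseudocount and -1.15 to -0.92 when 1 library was left out. Leaving out single libraries gave ranges of -0.35 to -0.02 for Esr1, -0.34 to -0.14 for Nr3c1, 0.1 to 0.22 for Pgrmc1, -0.01 to 0.03 for Pgrmc2, -0.11 to 0.06 for Gper1 and -0.11 to 0.19 for Nr3c2. Pgrmc2 was at -0.04 after quantile normalization. Median list changes ranged over the same settings from -0.11 to 0.36 for corticosteroid-responsive genes (-0.11 without Nat10-deleted replicate 3), -0.05 to 0.13 for oestrogen-responsive (all 22 tested genes, Sprr2f included), -0.18 to 0.09 for progesterone-responsive, -0.19 to 0.07 for chaperones, -0.2 to -0.03 for coregulators, -0.06 to 0.08 for related receptors and -0.04 to 0.11 for enzymes. Relative to the upper quartile of tested genes in place of Esr1, Pgr in deleted uteri was 46.2% of control. The count of genes at an adjusted p under 0.05 in limma was 316 with array quality weights and 0 to 12 without 1 library (12 without Nat10-deleted replicate 2). It was 0 under the other 8 settings that kept all libraries. Genes without overlap numbered 1300 to 1690 with all libraries and 1900 to 4021 without 1, where fewer libraries have to be separated. Scaling shifted the split at an unadjusted p under 0.05 from 339 higher and 291 lower to 248 and 376 (median centring), 259 and 414 (quantile) and 232 and 399 (upper quartile).

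With the replicate number as a block, 0 genes passed, with 420 higher and 306 lower at an unadjusted p under 0.05, and the Pgr change was -1.06. Deviations of same-numbered libraries from their group means had Pearson r over genes of -0.34, -0.03 and 0.1. Differently numbered pairs ranged from -0.24 to 0.27. With 3 libraries per group these values constrain one another, so they cannot decide whether the numbers pair the libraries. No total read count is known, so low genes such as Esr2 cannot be given a detection limit.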

Other observations

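Position was looked at after the data were seen. The 5 listed genes on either side of Pgr on chromosome 9 did not share its level. The nearest, Arhgap42, lies 25.7 kb beyond its end and was at 15.6, 16.3 and 13.7 FPKM in controls and at 17, 13.2 and 18.1 in deleted replicates 1, 2 and 3. The nearest on the other side, Trpc6, lies 219.1 kb away and was at 3.59, 2.65 and 3.23 in controls and at 2.7, 2.98 and 2.77 in deleted replicates. The groups overlapped for both. Yap1, a growth-control coactivator 895.2 kb away, was at 66.5 ± 2.2 in controls and 64.1 ± 5.38 in the deleted group (SD, n = 3). Cep126, Jrkl and Ccdc82 were higher in every deleted library than in every control, with log2 changes of 0.13, 0.34 and 0.31, which is 3 of 9 tested neighbours, and 6.12% of all tested genes lay above in this way. Jrkl and Ccdc82 lie 4274 and 4278.3 kb from Pgr, and the smallest limma adjusted p over all genes was 0.669. Cntn5 was listed at 0 in all controls and was at most 0.0856 in deleted libraries.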
